A study of Homo sapiens with 6 samples.

Results

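TGF-beta signalling was described through 10 of its core genes: the ligand gene TGFB1, the receptor genes TGFBR1, TGFBR2 and TGFBR3, the signal transducers SMAD2, SMAD3 and SMAD4, and the corepressors SKI, SKIL and TGIF1. They were taken by gene name from the 58735 genes of the deposited tables, and all 10 were among the 15881 genes with enough counts to be tested. The RNA-seq libraries came from MDA-MB-231, an established culture line of human triple-negative breast cancer, with the genotype WT in every sample. All cells carried the red membrane dye PKH26, which is diluted at each division, and had been kept in culture for 12 days after staining. Slow-cycling cells (SCC) were the brightest 1% in the sort, and rapid-cycling cells (RCC) were sorted at a brightness that the protocol calls moderate and the sample characteristics call low. Each group had 3 libraries, described as biological replicates. The labels do not say whether these were separate cultures or sorts, so p-values measure only the spread between these libraries. Both groups are sorted fractions of 1 cell line, and dye retention stands in for slow division.

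TGF-beta ligands are secreted in a latent form. Once released, they bind the type II receptor, which phosphorylates the type I receptor, and that kinase phosphorylates SMAD2 and SMAD3, which enter the nucleus with SMAD4 and act on DNA beside other factors, AP-1 among them. SKI and SKIL (also called SnoN) bind SMADs and recruit repressor complexes, TGIF1 is a homeodomain repressor that does the same, and SKIL and the inhibitory SMAD7 are themselves well-known targets of the pathway that restrain it. In breast cancer the pathway is known both for arresting the cell cycle and for promoting invasion and a mesenchymal state.

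Libraries held 19498054 to 27831824 counts in SCC and 17655855 to 22746267 in RCC. SCC replicate 1 stood apart from the other 2 SCC libraries along GC content. Its log2 CPM (counts scaled to library size, with edgeR's TMM factors) minus their mean had a median of -0.25 over the most GC-poor decile of tested genes and 0.43 over the most GC-rich decile. Values of single genes and ratios that moved by over 1.5 times without this library are given with and without it. Medians of log2 fold changes over several genes, and the values of ID1, are given with all 6 libraries only. For CTGF and COL4A1 the range over all alternative fits is given. All 6 markers of mesenchymal basal breast cancer cells were at a mean of at least 1 FPKM (fragments scaled to gene length and library size), summing to 618 to 622 in SCC and 593 to 627 in RCC. Of 7 luminal markers 4 did so, ERBB2, GATA3, FOXA1 and EPCAM, and the list summed to 13.0 to 18.0 in SCC and 13.0 to 13.9 in RCC, while PGR, CDH1 and ESR1 had at most 16 counts in any library. Of the markers of other cell types, 0 of 6 leukocyte and 0 of 5 endothelial genes reached a mean of 1 FPKM, and 1 of 5 fibroblast genes did, COL1A1. Summed FPKM in SCC and RCC was 0.279 to 0.931 and 0.269 to 0.283 for the leukocyte list, 0.566 to 0.643 and 0.548 to 0.656 for the endothelial list, and 1.22 to 1.67 and 0.913 to 1.20 for the fibroblast list. The part of these markers in the results was not tested.

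All 10 genes were expressed in both groups. By mean FPKM over the 6 libraries, a level per gene length, the order was SMAD3 at 43.4, TGFBR2 at 35.6, TGFB1 at 21.9, SKI at 17.6, TGFBR1 at 6.08, TGFBR3 at 4.69, TGIF1 at 3.25, SMAD4 at 3.13, SKIL at 2.69 and SMAD2 at 1.37. Library ranges of neighbours in this order overlapped for TGFB1 and SKI, for TGIF1 and SMAD4, and for SMAD4 and SKIL, and for no other neighbours. In FPKM, SMAD3 was above 93.9% of all tested genes and SMAD2 above 29.7%. The low FPKM of SMAD2 goes with the length used for it, 36366 bases of merged exons, the longest of the 10. In counts, SMAD2 had 923 to 1338 per library and SMAD4 784 to 1000. With the length of the longest coding transcript in place of the merged exons, an alternative chosen after seeing the data, TGIF1 moved from place 7 to place 5, at 8.82, and TGFBR1 and TGFBR3 moved to places 6 and 7, at 6.39 and 6.32. SMAD2 stayed at place 10, at 1.44, as its longest coding transcript has 34526 bases.

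**Figure D1:**
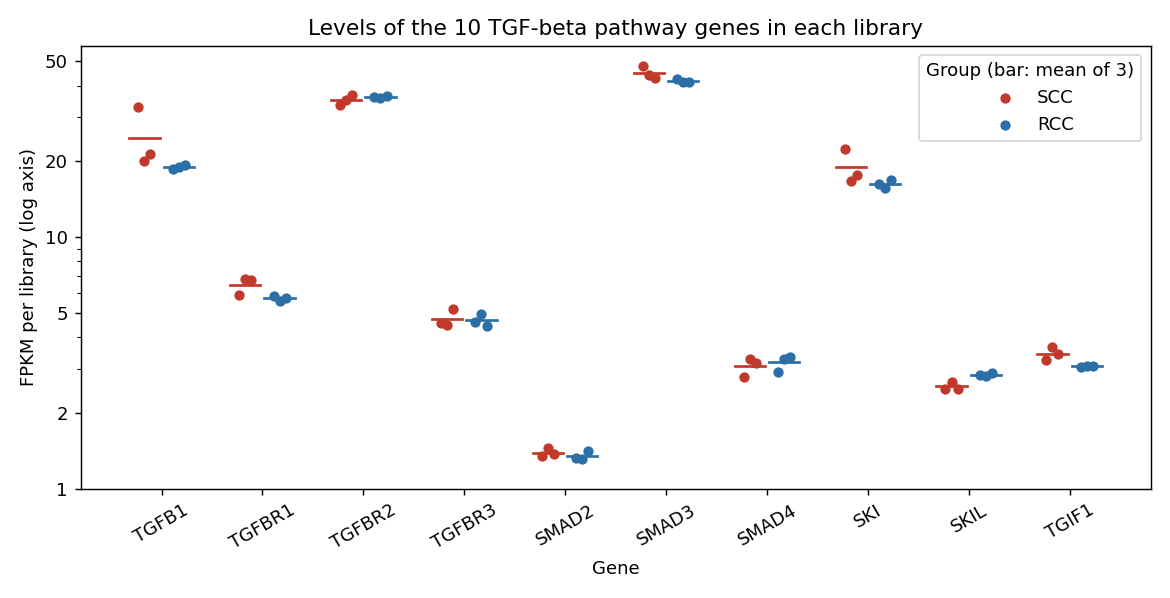
FPKM of the 10 genes (log axis) in each of the 3 SCC and 3 RCC libraries, points in replicate order from left to right, with a bar at each group mean. The genes differ from each other far more than the groups do, and SCC replicate 1 stands above the other libraries for TGFB1 (32.9) and SKI (22.4).

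None of the 10 genes passed the test between SCC and RCC. With edgeR's quasi-likelihood test and Benjamini-Hochberg adjustment over all tested genes, 0 of 10 were called in either direction at an adjusted p under 0.05. Among all tested genes 2.07% were called, 1.69% as higher and 0.378% as lower in SCC (268 and 60 genes, or 548 and 295 with an offset for GC content). DESeq2 and limma on log2 FPKM also called 0 of the 10. At an unadjusted p under 0.05 there were 2 of 10, TGFB1 and TGFBR1, beside 19.7% of all tested genes, which is a share near that background. Groups did not overlap for 5 of 10, TGFB1, TGFBR1, SMAD3, SKIL and TGIF1, beside 27.8% of all tested genes. The median log2 fold change of the 10 genes was 0.081, and that of all tested genes 0.0029. For 9 of the 10 genes, all but TGFB1, the 95% interval lay within 1.5-fold in either direction. In bulk RNA of sorted cells, fewer expressing cells and less RNA per cell cannot be told apart.

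**Figure D2:**
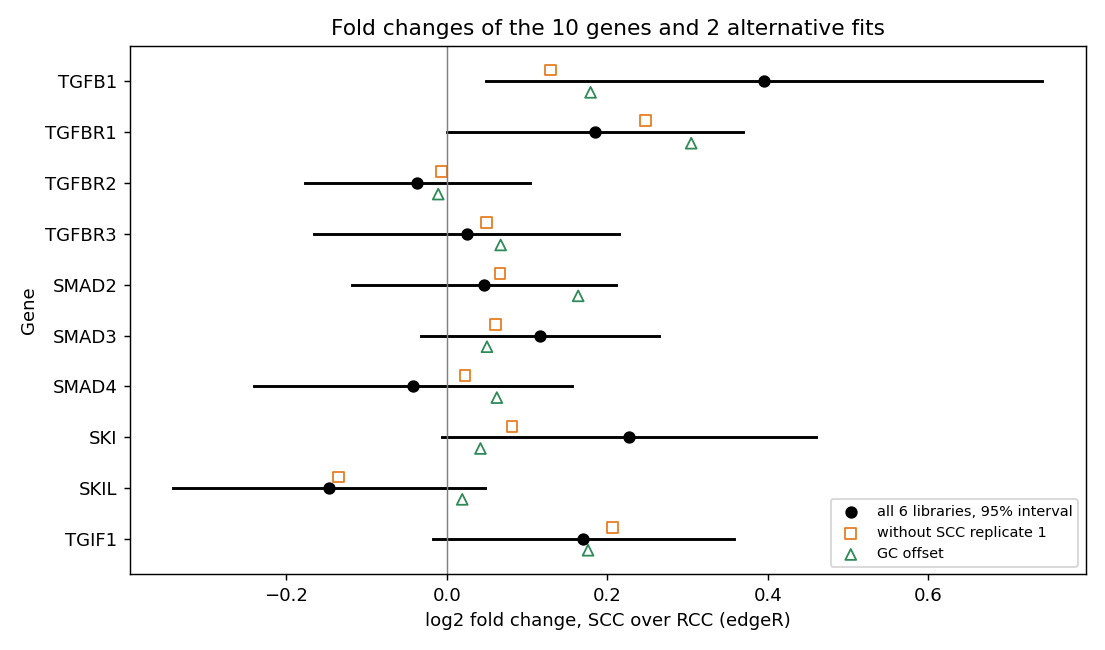
log2 fold change of SCC over RCC for each gene (black points, edgeR, all 6 libraries) with its 95% interval, and the values without SCC replicate 1 (squares) and with an offset for GC content (triangles). TGFB1 falls from 0.40 to 0.13 and 0.18 under these fits, SKI from 0.23 to 0.081 and 0.042, and TGFBR1 goes from 0.18 to 0.25 and 0.30.

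TGFB1 (ENSG00000105329, chr19:41301587-41353911, minus strand, GRCh38) encodes the ligand TGF-beta 1. Its level was 108, 65.5 and 69.3 CPM in SCC replicates 1, 2 and 3 and 61.0, 61.4 and 62.8 CPM in RCC. Every SCC library was above every RCC library, but replicates 2 and 3 lay only slightly above them and replicate 1 far above. On the log2 scale SCC exceeded RCC by 0.40 ± 0.16 (estimate ± standard error in edgeR, here and below, adjusted p = 0.206), which is 1.32-fold with a 95% interval of 1.03 to 1.67. The estimate was 0.13 when SCC replicate 1 was left out (adjusted p = 0.236) and 0.18 when an offset for GC content was fitted in each library (adjusted p = 0.205). TGFB1 passed the test in 1 of 17 alternatives, the fit of every gene with at least 1 count (log2 fold change 0.40, adjusted p = 0.000876), in which 2.65% of 37596 genes were called higher. It shares 215 exon bases, 6.64% of its length, with HNRNPUL1 on the opposite strand.

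TGFB1 has a GC content of 61.4%. In the 6 libraries the log2 CPM profiles most like that of TGFB1 were those of WDR34, MAP7D1, DBN1, PPP6R1 and C2CD2L, with Pearson r from 0.998 to 0.999, a description over libraries in which SCC replicate 1 is the highest for all of these genes. WDR34, for example, was at 233 CPM in SCC replicate 1 and between 162 and 175 in the other libraries. The 100 tested genes most like TGFB1 had a median GC content of 61.6%, beside 48.8% for all tested genes.

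**Figure D3:**
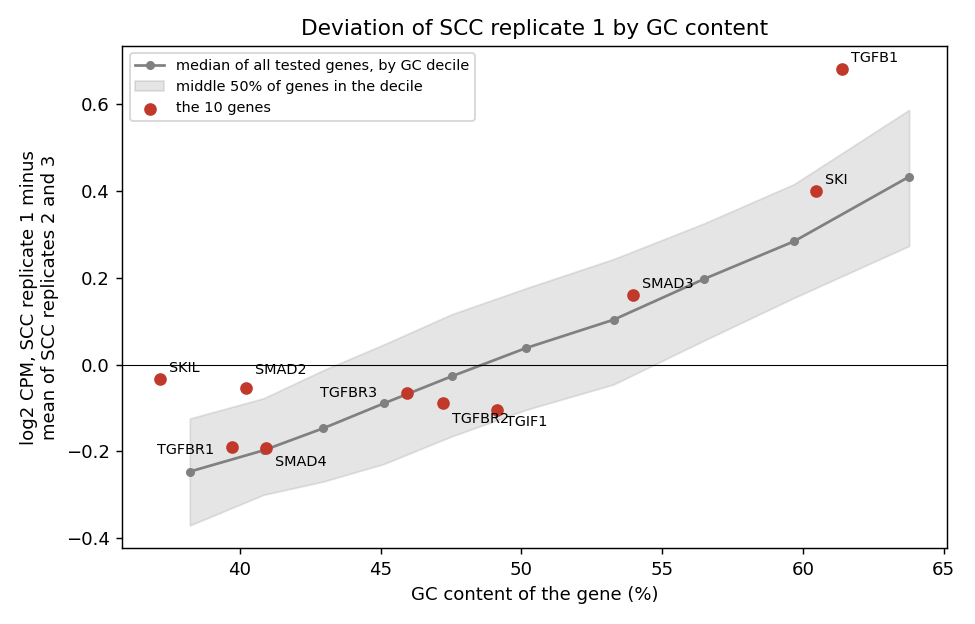
log2 CPM of SCC replicate 1 minus the mean of SCC replicates 2 and 3 against the GC content of the gene, for the 10 genes (red) and as the median of all tested genes per decile of GC content (grey line, with the middle 50% of genes shaded). TGFB1 (0.68) and SKI (0.40), at the GC-rich end, have the highest deviations of the 10, and TGFB1 lies above the shaded band.

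Of the receptors, TGFBR1 (ENSG00000106799, chr9:99104038-99154192, plus strand) encodes the type I receptor kinase. It was at 40.7, 46.8 and 46.1 CPM in SCC and 40.3, 37.8 and 39.3 CPM in RCC. Here SCC replicate 1 was the lowest SCC library, just above the highest RCC library, and the groups did not overlap. The difference was 0.18 ± 0.084 in log2 (edgeR, adjusted p = 0.252), or 1.14-fold with a 95% interval of 1.00 to 1.29. TGFBR1 has a GC content of 39.7%, and in SCC replicate 1 it was 0.19 lower on the log2 scale than in the other SCC libraries. It rose in the fit that leaves out SCC replicate 1 (0.25, adjusted p = 0.0372) and in that with the GC offset (0.30, adjusted p = 0.00955). In those fits 3.93% and 3.45% of all tested genes were called higher in SCC.

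TGFBR2 (ENSG00000163513, chr3:30606502-30694142, plus strand), the type II receptor that binds the ligand, was at 159, 166 and 173 CPM in SCC and 171, 168 and 172 CPM in RCC. The groups overlapped. In log2, SCC minus RCC was -0.036 ± 0.063 (edgeR, adjusted p = 0.770), with a 95% interval of 0.885 to 1.07-fold, and -0.0063 without SCC replicate 1. TGFBR3 (ENSG00000069702, chr1:91680343-91906335, minus strand) encodes betaglycan, the coreceptor that presents ligand to the type II receptor. It was at 40.1, 39.0 and 45.2 CPM in SCC and 40.3, 42.9 and 38.9 CPM in RCC. The groups overlapped. SCC minus RCC was 0.025 ± 0.086 in log2 (edgeR, adjusted p = 0.894), and 0.049 without SCC replicate 1.

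Within a library, the FPKM of TGFBR2 was 5.69, 5.16 and 5.46 times that of TGFBR1 in SCC replicates 1, 2 and 3 and 6.16, 6.45 and 6.38 times in RCC. Every SCC ratio was below every RCC ratio. The log2 ratio was 2.44 ± 0.072 in SCC and 2.66 ± 0.034 in RCC (SD, n = 3), a difference of -0.22 with a two-sided exact permutation p of 0.1 (0.15 adjusted over the 3 ratios tested), the smallest p that 3 against 3 libraries allow. Leaving out SCC replicate 1 made this -0.26, and the GC offset made it -0.32. A ratio within a library does not depend on how libraries are scaled to each other.

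Of the receptor-activated SMADs, SMAD3 (ENSG00000166949, chr15:67063763-67195195, plus strand), which binds DNA directly, had the most counts of the 10 genes, 6789 to 11979 per library. It was at 444, 402 and 393 CPM in SCC and 391, 373 and 380 CPM in RCC. The groups did not overlap, though the lowest SCC library was close to the highest RCC library. In log2 the difference was 0.12 ± 0.067 (edgeR, adjusted p = 0.351), and 0.061 without SCC replicate 1. SMAD2 (ENSG00000175387, chr18:47808957-47931146, minus strand), its partner in signal transduction, was at 49.6, 53.0 and 50.2 CPM in SCC and 48.7, 47.6 and 51.6 CPM in RCC. The groups overlapped, and SCC minus RCC was 0.047 ± 0.075 in log2 (edgeR, adjusted p = 0.746).

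The log2 ratio of SMAD2 over SMAD3 in FPKM was -5.02 ± 0.13 in SCC and -4.95 ± 0.065 in RCC (SD, n = 3). The groups overlapped, and the difference of -0.067 had a two-sided exact permutation p of 0.6 (0.6 adjusted over the 3 ratios). With the GC offset the difference was 0.11, and without SCC replicate 1 it was 0.0042. SMAD4 (ENSG00000141646, chr18:51028394-51085045, plus strand), the common partner of the activated SMADs, was at 37.1, 43.3 and 41.5 CPM in SCC and 38.6, 43.0 and 43.9 CPM in RCC, so that the lowest library of each group was its replicate 1. The groups overlapped, with SCC minus RCC at -0.042 ± 0.090 in log2 (edgeR, adjusted p = 0.817), and at 0.023 without SCC replicate 1. SMAD4 shares 967 exon bases, 7.37% of its length, with AC091551.1 on the same strand, and SMAD3 shares 182, or 2.0%, with AC087482.1 on the opposite strand.

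Among the corepressors, SKI (ENSG00000157933, chr1:2228695-2310119, plus strand) was at 138, 102 and 108 CPM in SCC and 99.8, 94.9 and 103 CPM in RCC. SCC replicate 1 was far above all other libraries, and SCC replicate 2 was below the highest RCC library. The difference was 0.23 ± 0.11 in log2 (edgeR, adjusted p = 0.263). SKI has a GC content of 60.5%, and its estimate was 0.081 (adjusted p = 0.438) when SCC replicate 1 was left out and 0.042 (adjusted p = 0.681) under the GC offset.

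SKIL (ENSG00000136603, chr3:170357678-170396835, plus strand), the close relative of SKI, was at 19.7, 20.8 and 19.5 CPM in SCC and 22.2, 21.6 and 22.4 CPM in RCC. It was the only gene of the 10 with every SCC library below every RCC library. SCC minus RCC was -0.15 ± 0.088 in log2 (edgeR, adjusted p = 0.368), or 0.903-fold with a 95% interval of 0.790 to 1.03. SKIL has the lowest GC content of the 10 genes, 37.2%, and under the GC offset the estimate was 0.019. TGIF1 (ENSG00000177426, chr18:3411608-3459978, plus strand) was at 27.1, 30.1 and 28.2 CPM in SCC and 25.2, 25.1 and 25.5 CPM in RCC. Here every SCC library was above every RCC library, and the RCC libraries were nearly equal. In log2 the difference was 0.17 ± 0.085 (edgeR, adjusted p = 0.289), and leaving out SCC replicate 1 gave 0.21 and the GC offset 0.18.

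SKIL over SKI, the ratio of the paired corepressors in FPKM, was 0.111, 0.159 and 0.141 in SCC replicates 1, 2 and 3 and 0.174, 0.178 and 0.170 in RCC. All SCC ratios were below all RCC ratios. On the log2 scale the ratio was -2.88 ± 0.26 in SCC and -2.52 ± 0.034 in RCC (SD, n = 3), a difference of -0.36 with a two-sided exact permutation p of 0.1 (0.15 adjusted over the 3 ratios). Leaving out SCC replicate 1 made this -0.22, and the GC offset made it -0.027. SKI and SKIL lie near opposite ends of the GC range of the 10 genes.

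Of the inhibitors of the pathway, SMAD7 (ENSG00000101665, chr18:48919853-48952052, minus strand), which blocks the type I receptor and recruits ubiquitin ligases to it, was at 31.2, 23.3 and 24.4 CPM in SCC and 11.9, 13.4 and 14.0 CPM in RCC. Every SCC library was well above every RCC library, SCC replicate 1 the most. SMAD7 rose by 1.01 ± 0.13 in log2 (edgeR, adjusted p = 0.00175), or 2.02-fold with a 95% interval of 1.65 to 2.46. Leaving out SCC replicate 1 gave 0.87, and the GC offset 0.90. SMAD7 passed the test in 16 of 17 alternatives and missed it with limma on log2(FPKM + 1) without a filter (adjusted p = 0.128). SMAD7 over SKIL, a ratio of the 2 feedback genes in FPKM chosen after seeing their values, was 2.46, 1.73 and 1.93 in SCC and 0.826, 0.956 and 0.968 in RCC. By this measure SMAD7 was above SKIL in each SCC library and slightly below it in each RCC library. Which gene is higher depends on the lengths used, 5033 bases for SMAD7 and 7782 for SKIL, and other lengths were not tried for this ratio.

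Promoter sequences are shown for both feedback genes and for 3 of the 10 genes with an AP-1 element, since the series title names AP-1. They are RefSeq's, on GRCh38.p14, from 250 bases before to 50 after a start site. Entries were found for 9 of the 10 genes, with 28 promoters in all, many of them alternative starts of 1 gene that overlap. SKI was not matched. The SMAD binding element CAGAC, searched on both strands, occurred in 13 of the 28 promoters, of SKIL, SMAD3, TGFBR1 and TGIF1, and in 45.3% of all 35116 promoters. The AP-1 element TGANTCA, which reads the same on both strands, occurred in 5 of the 28, of TGFBR2, SMAD3 and TGIF1, and in 7.71% of all. The palindrome GTCTAGAC occurred in 0 of the 28 and in 0.202% of all. A match describes the letters and is not evidence of binding. Capitals mark the element, or its reverse complement in SKIL, in each line, read 5′ to 3′ on the strand of the gene.
SKIL, chr3:170357568-170357652, plus strand: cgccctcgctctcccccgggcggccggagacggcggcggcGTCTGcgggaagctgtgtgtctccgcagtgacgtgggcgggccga
SMAD7, chr18:48951166-48951194, minus strand: gccggacgccccCAGACctctgaggttcg
SMAD7, chr18:48951077-48951105, minus strand: ttcttattttgcCAGACgtctcatgcggg
TGFBR2, chr3:30606585-30606611, plus strand: tgaagttgagTGAGTCActcgcgcgca
SMAD3, chr15:67125676-67125702, plus strand: ctgactcctcTGAGTCAtgcccagggg
TGIF1, chr18:3449691-3449717, plus strand: ccccgcccctTGAATCAgaggcggctg
For TGIF1, 1 of 3 elements is shown, and for SMAD7 1 further CAGAC in another of its promoters is not shown. The SKIL element begins 107 bases before its start site, where GENCODE 29 has no gene. The SMAD7 elements begin 217 and 128 bases before a RefSeq start, and both windows lie in an untranslated exon of a longer GENCODE 29 transcript of SMAD7. The elements of TGFBR2 and TGIF1 begin 6 bases before a start and lie in an untranslated exon of the gene, and that of SMAD3 begins 56 bases before an internal start, within an intron. TGFBR2, SMAD3 and TGIF1, the genes with an AP-1 element, did not pass the test, and neither did SKIL.

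The wider pathway was counted in 5 lists with 72 distinct tested genes, 62 of them besides the 10 genes described above. The lists were written with earlier results of these data known, so the counts are a description and not a test of the pathway. Of these 62, 11 rose and 0 fell in SCC, beside 1.69% and 0.378% of all tested genes. At an unadjusted p under 0.05, 19 of the 62 were higher and 2 lower, beside 11.4% and 8.27% of all tested genes. Their median log2 fold change was 0.10. Over the 5 lists with the 10 genes included, the count was also 11. It was 15 without SCC replicate 1, TGFBR1 among them, where 3.93% of all tested genes were called higher. It was 6 without any 1 of the 3 RCC libraries, where 99 to 103 genes were higher in all.

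Ligand and latency genes had a median log2 fold change of 0.22 with all 6 libraries. Of 14 tested, 2 rose, beside 1.69% of all tested genes. The median without SCC replicate 1 was not taken. GDF15, a stress-induced distant member of the TGF-beta family, was at 16.3, 12.0 and 11.9 CPM in SCC and 7.95, 8.51 and 7.16 CPM in RCC, a log2 fold change of 0.77 (adjusted p = 0.0268, edgeR). INHBB, which encodes the subunit of activin B, was at 58.2, 48.7 and 50.1 CPM in SCC and 38.2, 39.3 and 41.6 CPM in RCC, a log2 fold change of 0.40 (adjusted p = 0.0470). For both, all SCC libraries lay above all RCC libraries. Both calls were lost without any 1 RCC library and with limma on FPKM in all 3 settings, and that of INHBB also without SCC replicate 3 and with upper-quartile scaling (adjusted p = 0.0535). GDF15 passed in 11 and INHBB in 9 of 17 alternatives. The other ligands did not pass the test: TGFB2 had a log2 fold change of 0.12, INHBA, the subunit of activin A, 0.31, and TGFB3 -0.22 at 1.24 to 2.24 CPM. TGFB2, with a GC content of 38.9%, was called with the GC offset and without SCC replicate 1, as TGFBR1 was. LTBP2, which encodes a latent TGF-beta binding protein, was the uncalled gene with the smallest p (0.30, adjusted p = 0.158).

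Of 10 receptor genes, 1 rose, beside 1.69% of all tested genes. The median log2 fold change was 0.059 with all 6 libraries. BAMBI, a pseudoreceptor without a kinase that blocks signalling, was at 13.5, 9.82 and 12.2 CPM in SCC and 7.78, 6.93 and 6.49 CPM in RCC. All SCC libraries were above all RCC libraries. BAMBI rose by 0.75 ± 0.15 in log2 (edgeR, adjusted p = 0.0284), and the call was lost without SCC replicate 3, without any 1 RCC library and in the 3 limma fits, so that it passed in 10 of 17 alternatives. ACVR1B, the activin type I receptor, and ENG, which encodes the coreceptor endoglin, had log2 fold changes of 0.093 and 0.16 and did not pass the test. ENG was at 113 CPM in SCC replicate 1, and at 71.9 and 76.6 CPM in the other SCC libraries and 76.2, 77.2 and 81.7 CPM in RCC. Without SCC replicate 1 the value of ENG was -0.076, in the opposite direction, and that of ACVR1B 0.041. ACVR2B, an activin type II receptor, was the uncalled receptor with the smallest p (-0.22, adjusted p = 0.238).

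The list of SMADs and corepressors, to which 6 of the 10 genes belong, had 0 of 12 tested genes called in either direction. Among all tested genes 2.07% were called. At an unadjusted p under 0.05 in edgeR the list also had 0 genes, beside 19.7% of all tested genes. Its median log2 fold change was 0.014. SKI was its gene with the smallest p. Among inhibitors and turnover genes 1 of 15 rose, SMAD7, beside 1.69% of all tested genes, and the median was -0.045. The ubiquitin ligases SMURF1 and SMURF2 had log2 fold changes of 0.098 and 0.096, and PMEPA1, an inhibitor that sequesters SMADs, 0.26, and none of the 3 passed the test. Without SCC replicate 1 the values were 0.027 for SMURF1, 0.094 for SMURF2 and 0.14 for PMEPA1. SMURF2 passed with the GC offset (0.20, adjusted p = 0.0449). SMAD6, the other inhibitory SMAD, was 0.42 higher in log2 without passing the test (edgeR, adjusted p = 0.162), with SCC libraries at 32.3, 23.7 and 24.2 CPM and RCC libraries at 17.5, 18.9 and 23.8 CPM that overlapped them. Without SCC replicate 1 the SMAD6 value was 0.26.

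Genes known as TGF-beta targets had the highest median of the 5 lists, 0.32. Of 26 tested, 8 rose, beside 1.69% of all tested genes. The log2 fold change was above 0 for 20 of the 26, beside 8021 of all 15881 tested genes. At an unadjusted p under 0.05 in edgeR, 14 were higher and 1 lower, beside 11.4% and 8.27% of all tested genes. The lower one was HMGA2 (-0.22, adjusted p = 0.127), named after its value was seen. HMGA2 passed as lower in 3 of 17 alternatives: without SCC replicate 1 (edgeR, adjusted p = 0.00621) and with the GC offset, alone or with a replicate block. CTGF and COL4A1, targets named after their values were seen, were at -0.014 and -0.030 (edgeR, adjusted p = 0.912 and 0.835). The groups overlapped for both genes. Over the 17 alternatives CTGF ranged from -0.043 to -0.0013 and COL4A1 from -0.068 to -0.019, with 0 calls. Many of the listed targets also respond to other signals, growth factors and stress among them. JUNB, an AP-1 subunit, rose by 1.80 in log2 (edgeR, adjusted p = 5.53e-05), and 14.23% of its length overlaps HOOK2 on the opposite strand. SNAI1, a repressor of epithelial genes, rose by 1.44 (adjusted p = 0.000379), and SMAD7 is given above. The cell cycle inhibitor CDKN1A was at 48.1, 46.3 and 48.4 CPM in SCC and 29.2, 28.8 and 30.8 CPM in RCC, a log2 fold change of 0.69 (adjusted p = 0.000747). KLF10, a TGF-beta inducible repressor, rose by 0.62 (adjusted p = 0.00100), and FN1, the matrix protein fibronectin, 0.49 (adjusted p = 0.00167). In each of JUNB, SNAI1, CDKN1A, KLF10 and FN1 all SCC libraries lay above all RCC libraries, and each passed the test in all 17 alternatives. HBEGF, an EGF receptor ligand, was the uncalled target with the smallest p (0.26, adjusted p = 0.0751). It passed in 4 of 17 alternatives, among them the fit without SCC replicate 1 (0.29, adjusted p = 0.000568).

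**Figure D4:**
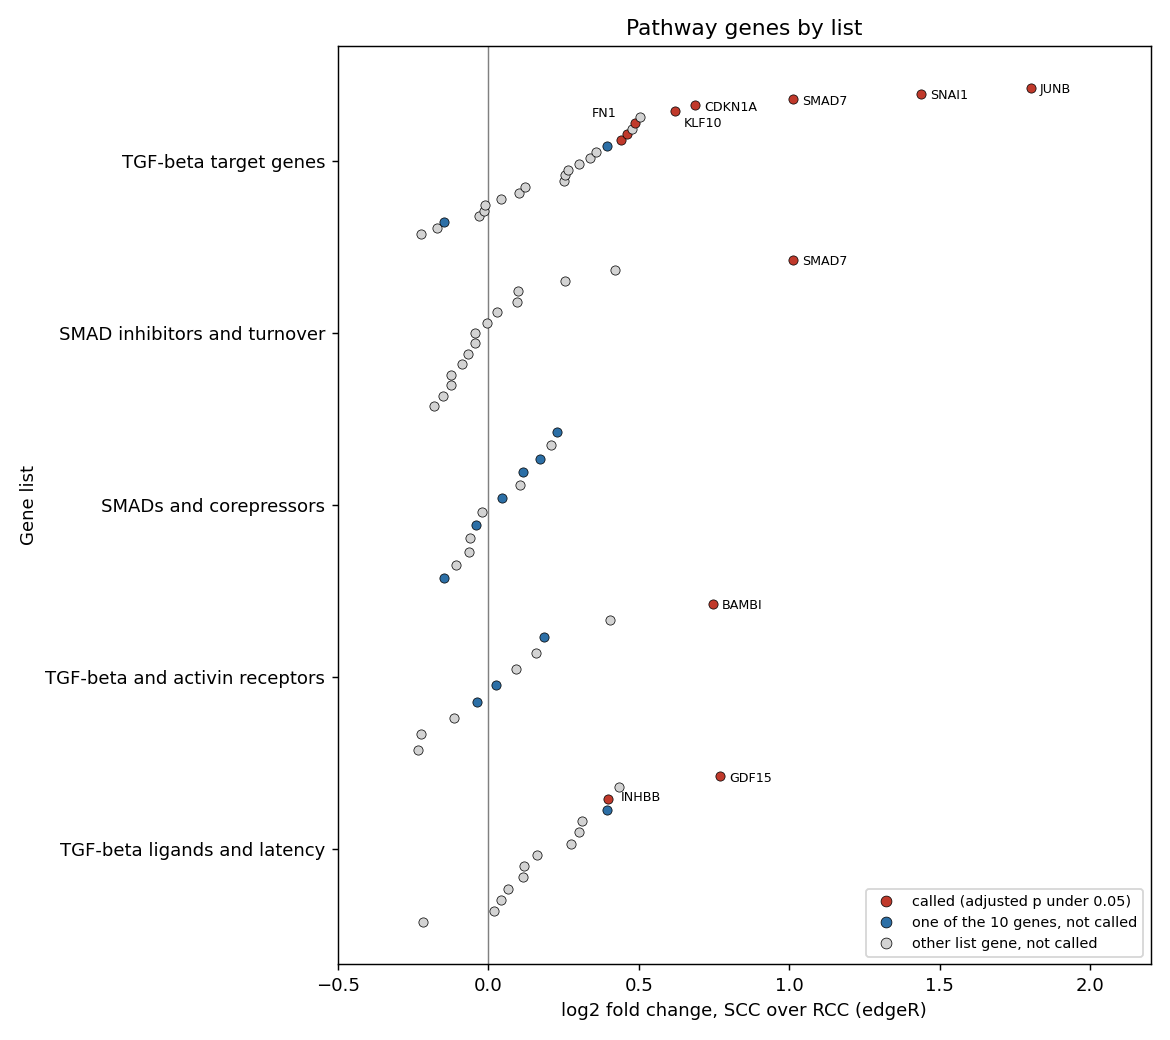
log2 fold change of SCC over RCC for each tested gene of 5 TGF-beta pathway lists, 1 point per gene and in rising order within a list; height within a list has no other meaning. Genes that passed the test (red) are labelled where named in the text; the 10 core genes (blue) lie between -0.15 and 0.40, and SMAD7 stands in both the inhibitor and the target list.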

How the data were processed

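RNA-seq gene expression was measured in 6 libraries of sorted MDA-MB-231 cells. The authors deposited raw gene counts and, in a separate table, gene FPKM values. HISAT2 2.0.5 and featureCounts 1.5.0-p3 were used, per the submitters' processing notes. Their settings, the genome build and the use of strand are not given in the sources used here. All 58735 deposited rows have the gene ID, position and merged exon length of GENCODE 29 on GRCh38. Each library's FPKM values equal count over length and a constant of 0.983 to 1.02 times its total count.

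The 10 genes, the gene lists and the tests were chosen with earlier results of these data known. Genes were named by a written rule: all 10, of each list the called genes (up to 6, by p) and the uncalled gene with the smallest p, 10 further pathway genes (SMAD7, SMURF1, SMURF2, PMEPA1, TGFB2, TGFB3, INHBA, ACVR1B, ENG and 1 that is not reported here), and the 5 genes most like the gene with the smallest p. The deposited counts entered edgeR 4.0.16 under R 4.3.3 (filterByExpr with a minimum count of 10, TMM, quasi-likelihood test, Benjamini-Hochberg over 15881 genes, threshold 0.05). The test was tried on simulated data, in which no library deviated along GC content as SCC replicate 1 does. Ratios were tested by exact permutation of libraries with scipy 1.17.1. Alternatives were DESeq2 1.42.0, other scalings and filters, limma 3.58.1 on log2(FPKM + 1) or log2(FPKM + 0.1), an offset for GC content (lowess span 0.3), the replicate number as a block, and leaving out each library. No 2 libraries of a group agreed within sampling noise. Chi-square per degree of freedom was 28.5 and 21.4 for SCC replicate 1 against SCC replicates 2 and 3. It was 3.28 to 4.24 for the other pairs. Counts lack molecular identifiers, and no share of counts is given. The 10 genes had 401 to 11979 counts per library.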

Additional observations from a re-analysis of the deposited data

How the results depend on the processing

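Across 17 alternatives, the log2 fold changes of the 10 genes kept their direction and their side of the threshold in 159 of 170 cases, passed the threshold in 4 and changed sign in 7. The calls were TGFB1 with every gene of at least 1 count, and TGFBR1 with the GC offset, with the GC offset and replicate block, and without SCC replicate 1, so that 1 of 10 genes was called higher in each of these fits. Leaving out each library in turn gave 0 to 1 higher and 0 lower. The sign changed for TGFBR3, SMAD4 and SKIL. TGFBR3 was at -0.051 without SCC replicate 3 and -0.015 without RCC replicate 3, in a range of -0.051 to 0.060 over the fits that leave out a library. SMAD4 was at 0.063 with the GC offset, 0.064 with GC offset and block, and 0.023 without SCC replicate 1, where leaving out a library gave -0.11 to 0.023. SKIL, at -0.15 without an offset, was at 0.019 with the GC offset and 0.017 with GC offset and block. The cause was not tested. The labels state no pairing, so the numbers were not taken as pairs. Deviations of same-numbered libraries of the groups had r of -0.0091, 0.025 and -0.079, and those of differently numbered ones -0.090 to 0.092. This check cannot decide on pairing, as SCC replicate 1 deviates from its group along GC content. With the replicate block, 0 of the 10 genes were called, TGFB1 was 0.36 higher in log2 (edgeR, adjusted p = 0.135), 11 genes of the 5 lists were higher, and 350 genes were higher and 106 lower in all.

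Counts of called genes moved more. Of all tested genes, 268 were higher and 60 lower. They were 995 and 315 with every gene of at least 1 count, 548 and 295 with the GC offset, 701 and 545 with GC offset and block, and 394 and 120 with DESeq2. With limma they were 130 and 36 on log2(FPKM + 1), 117 and 34 on log2(FPKM + 0.1), and 48 and 1 without a filter. Leaving out a library gave 99 to 642 higher and 8 to 343 lower. Genes of the 5 lists called higher numbered 17 with every gene of at least 1 count, 17 with the GC offset, alone or with the block, 7 and 7 with limma at the larger and smaller pseudocount, 5 without its filter, and 6 to 15 without 1 library. Lower calls, 0 otherwise, were 2 with the GC offset, alone or with the block (IL11 and HMGA2, named after their values were seen), and 0 to 1 without 1 library. With the GC offset, the log2 ratio differences between SCC and RCC were -0.027 for SKIL over SKI, 0.11 for SMAD2 over SMAD3, -0.32 for TGFBR2 over TGFBR1 and 0.87 for SMAD7 over SKIL, and the last was 0.89 with 1 added to each FPKM. With 3 libraries a group, a permutation p cannot go below 0.1.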

Other observations

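The BMP arm of the superfamily, which signals through other receptors and SMAD1, SMAD5 and SMAD9, was counted in the same fit. Of 13 tested genes 2 rose and 0 fell in SCC, beside 1.69% and 0.378% of all tested genes, and 5 were higher at an unadjusted p under 0.05, beside 11.4% of all tested genes. The median log2 fold change was 0.081. ID2, which encodes an inhibitor of basic helix-loop-helix factors, was at 13.3, 15.1 and 12.2 CPM in SCC and 4.91, 4.97 and 7.22 CPM in RCC, a rise of 1.26 ± 0.17 in log2 (estimate ± standard error in edgeR, adjusted p = 0.00213). Every SCC library lay above every RCC library. ID2 passed the test in 16 of 17 alternatives, the exception being limma on log2(FPKM + 1) without a filter. ID4, of the same family, rose by 0.52 in log2 (adjusted p = 0.0466), a call that was lost without SCC replicate 3, without any 1 RCC library and in the 3 limma fits, so that it passed in 10 of 17 alternatives. ID3 had a log2 fold change of 0.24 and did not pass the test (adjusted p = 0.156), and the value was 0.15 without SCC replicate 1. ID1, named after its value was seen, was at 153, 135 and 140 CPM in SCC and 116, 131 and 137 CPM in RCC. The groups overlapped, and ID1 did not pass the test (log2 fold change 0.16, edgeR, adjusted p = 0.302).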
